A study of Mus musculus with 6 samples.

Results

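The amino acid and sugar carriers of the SLC1, SLC2, SLC3, SLC5, SLC6, SLC7, SLC36, SLC38 and SLC43 families were compared between intrahepatic biliary epithelial cells with and without a conditional deletion of Sox9. The members were the rows of the deposited gene table whose symbol begins with one of these family names and a member number, and this rule uses no measured value. They numbered 74 of 25302 rows, in 9 families. A pair of them, Slc2a4rg-ps (a pseudogene named for a regulator of Slc2a4) and Slc7a6os (a gene next to Slc7a6), are not carriers, which left 72 carriers. Of the 74 rows, 52 averaged 10 normalized reads or more across the 6 libraries and were tested, and 22 fell short of that mean. In the test 1 carrier changed: Slc6a13, a transporter of GABA, taurine and betaine, was higher in Sox9cKO. With limma a further 5 were called only when the replicate number was added to the model, and DESeq2 called 2 of these 5 without it. The most abundant carriers of either substrate class were not called.

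Carriers of these families move amino acids, sugars and related small solutes across the plasma membrane or the lysosomal membrane. SLC2 transporters let sugars pass along their gradient, whereas SLC1, SLC5, SLC6 and most SLC38 members use the sodium gradient to take up solute against one. SLC7 holds cationic amino acid transporters and light chains, and the latter reach the cell surface only when joined to a heavy subunit of SLC3. Biliary epithelial cells line the bile ducts and are known to take back glucose and amino acids from bile, in part through the sodium-glucose carrier Slc5a1 on the side facing the bile.

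RNA was sequenced from 3 Control samples, which carried floxed Sox9 alleles (Sox9fl/fl), and 3 Sox9cKO samples, which carried the same floxed alleles together with the AlbCre transgene (Sox9fl/fl:AlbCre+/-). Both groups therefore carry floxed alleles, and the groups differ in the Cre transgene. The albumin promoter that drives this Cre is active across the hepatic lineage, so the deletion is not limited to bile duct cells. Age and sex of the animals are not given in the sources used here, and nothing in the labels says whether the 3 samples of a group came from separate animals, so the p-values measure only the spread between these samples.

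The libraries held between 11883496 and 16191990 reads assigned to genes, and between 23743 and 25084 genes had a read. Values are normalized read counts, that is, reads scaled to a common library size. Sox9, the targeted gene, was at 6211, 6043 and 6293 in Control replicates 1 to 3 and at 3363, 3165 and 3340 in Sox9cKO replicates 1 to 3, a ratio of 0.532 between the group means. On the log2 scale it fell by 0.91, standard error (SE) 0.095 (limma, Benjamini-Hochberg adjusted p = 0.00501). Whether the deleted part of Sox9 lies among the counted exons is not given in the sources used here. Libraries differed within groups in other ways. Ddx3y, on the Y chromosome, had no read in Control 1, Control 3 and Sox9cKO 1 and a value between 2256 and 2323 in the other 3 libraries, and Xist, of the inactive X chromosome, was high only in the libraries without Ddx3y reads. The summed value of 10 endothelial markers was 11637, 36668 and 1672 in Control and 29162, 37568 and 6009 in Sox9cKO. All 10 had positive log2 fold changes, from 0.63 to 1.52 with a median of 1.07. Limma called none of these 10 without the replicate block and 1, Vwf, with it (log2 fold change 0.72, adjusted p = 0.0420). Of 14 hepatocyte markers, 4 rose (Fgb, Serpina1a, Apob and Tat), beside 2.03% of all tested genes that rose. The summed value of the 14 was 25096 to 38830 in Control and 48079 to 79481 in Sox9cKO, and none of the 14 was at 0 in a library. The summed value of 14 biliary markers ranged from 88375 to 124072 in Control and from 81844 to 111076 in Sox9cKO. In Control 1, where it was 124072, Spp1 alone was at 74187. The biliary sum was above the hepatocyte sum in each library, but in Sox9cKO 3 they were close, at 84561 and 79481. Among the 14 biliary markers, Sox9 fell and Krt7 rose. Of the markers of other cells, 1 of 7 tested for Kupffer cells and leukocytes rose (Csf1r). The other 6 had negative log2 fold changes, and the median of the 7 was -0.69. With the block limma also called Lyz2, which was lower in Sox9cKO (log2 fold change -1.33, limma, adjusted p = 0.0417). Ptprc and Cd68 lay below Control in every Sox9cKO library. None of 9 markers for stellate and mesenchymal cells and none of 4 for erythroid and neural cells was called. In bulk RNA, fewer cells of a type and less RNA per cell cannot be told apart.

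Slc6a13 (ENSMUSG00000030108) was nearly silent in Control and moderately expressed in Sox9cKO. It was at 4.20, 4.64 and 6.91 normalized reads in Control replicates 1 to 3 and at 59.7, 116 and 94.0 in Sox9cKO replicates 1 to 3. All Sox9cKO libraries lay far above all Control libraries. The means were 5.25 ± 1.45 (SD, n = 3) and 90.0 ± 28.5 (SD, n = 3), and the log2 fold change was 3.84 with an SE of 0.36 (95% interval 2.98 to 4.69, limma, adjusted p = 0.00383). In reads, the Control libraries held 16 and the Sox9cKO libraries 266, a depth-corrected ratio of 16.6 with an exact 95% interval of 10.02 to 29.4 that covers counting error only. The difference was of similar size in each same-numbered pair of libraries, at 3.54, 4.38 and 3.59 on the log2 scale. In replicates 1 and 2, with 3.54 and 4.38, the Control and the Sox9cKO library were alike in Xist and Ddx3y, and in replicate 3 they were not. Hepatocytes also express Slc6a13, and the hepatocyte markers Fgb and Serpina1a moved with it, at 3.62 (limma, adjusted p = 0.00319) and 4.21 on the log2 scale (limma, adjusted p = 0.00368). Apob (2.97, limma, adjusted p = 0.00383) and Tat (2.26, limma, adjusted p = 0.00726) rose as well, and 11 of the 14 markers had positive log2 fold changes, with a median of 0.61. Hnf4a (0.75) was called with the block in limma (adjusted p = 0.0170) and with DESeq2 (adjusted p = 0.0398). Limma called none of the other 9 with or without the block, among them Cyp2e1 and Asgr1. Cyp2e1 was at 31.6 to 128 in Control and 31.7 to 122 in Sox9cKO, and Asgr1 at 26.5 to 50.1 and 7.92 to 17.96. The part of the hepatocyte transcripts in the Slc6a13 difference was not tested. Its neighbour Slc6a12, a betaine and GABA carrier, had 22 reads in Control and 27 in Sox9cKO (depth-corrected ratio 1.22, exact 95% interval 0.671 to 2.25).

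RefSeq gives 3 promoter windows for Slc6a13, and that of the most upstream start is shown because this was the member called. It runs from 250 bases before that start to 20 bases after it, at chr6:121300038-121300307 on the plus strand of GRCm38.p6, which is not the build named for the deposited files. Capitals would mark the SOX core motif AACAAT or the amino acid response motif TGATGNAA, on either strand, and none of the 3 windows holds either.
Slc6a13: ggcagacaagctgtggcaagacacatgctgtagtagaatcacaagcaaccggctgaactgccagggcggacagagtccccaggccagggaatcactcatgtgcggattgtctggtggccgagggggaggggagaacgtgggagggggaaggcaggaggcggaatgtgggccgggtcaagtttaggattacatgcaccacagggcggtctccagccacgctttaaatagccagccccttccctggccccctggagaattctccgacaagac
The SOX core was searched because Sox9 is a SOX factor. It occurred in 10.7% of all 32851 promoter windows of 300 bases and in 5 of the 77 windows of members (6.49%), which belong to Slc2a12, Slc2a8, Slc38a7, Slc6a20b and Slc7a1. None of these 5 genes was called. RefSeq windows were available for 55 of the 74 members. A match is a description of letters and not a binding site.

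The 1 call among 52 tested rows was 1.92%, against 510 of 17153 tested genes (2.97%) over the whole table. In the upward direction, 1 member stood against 2.03% of all tested genes, and in the downward direction none stood against 0.939%. In this fit, without the block, no tested carrier passed in the downward direction. Even so, 5 of the 52 had lower values in every Sox9cKO library than in any Control library. At an unadjusted p under 0.05 there were 15 members (28.8%), against 17.8% of all genes. The groups did not overlap for 12 members (23.1%), against 24.2% of all genes. Of these 12, Sox9cKO lay above Control for 7 (13.5%, against 13.4%) and below it for 5 (9.62%, against 10.8%). The share of members that separated the groups was thus near the share among all genes. The remaining 193 tested rows of other Slc families had 8 calls (4.15%) and 59 without overlap (30.6%). The median log2 fold change of the 52 members was 0.24, with 33 positive and 19 negative, against 0.04 for all tested genes, of which 54.2% were positive. Of the 51 members that were not called, 19 had a 95% interval inside 1 log2 unit in both directions, and the interval of the other 32 reached beyond it.

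**Figure D1:**
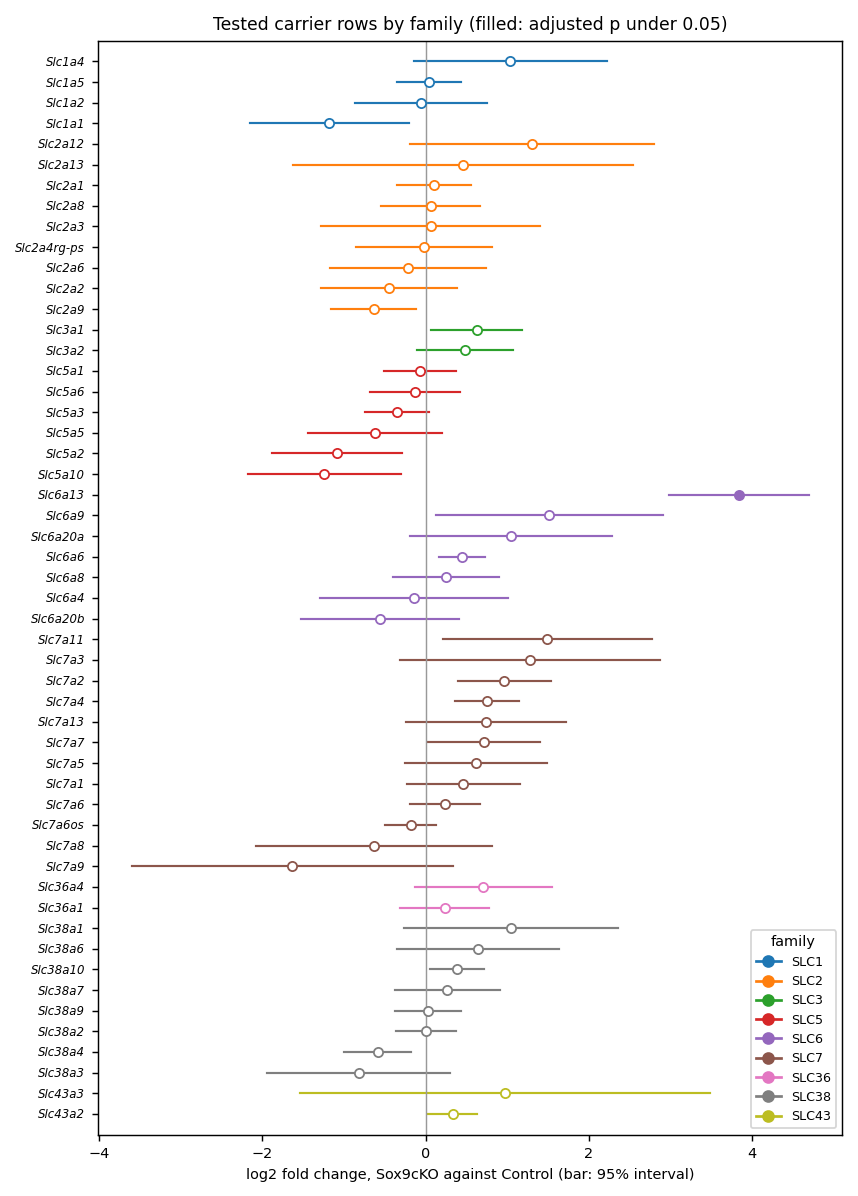
Log2 fold change of Sox9cKO against Control for the 52 tested rows, grouped and coloured by carrier family, with the 95% interval from limma as a bar and filled points for an adjusted p under 0.05. Slc6a13 is the filled point at 3.84, and all 6 tested SLC5 members lie left of 0.

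Same-numbered samples deviated together, so the model was also fitted with the replicate number as a block. With the block 6 members were called (11.5%), against 8.05% of all tested genes and 12.4% of tested rows of other Slc families. Besides Slc6a13 (limma with the block, adjusted p = 0.00191) the members called were Slc6a9, Slc1a4, Slc7a4, Slc7a2 and Slc1a1. Of these 5, Slc6a9, Slc1a4, Slc7a4 and Slc7a2 had higher means in Sox9cKO and Slc1a1 a lower mean.

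Slc6a9 encodes the glycine transporter GlyT1. It was at 88.3, 188 and 444 in Control replicates 1 to 3 and at 344, 551 and 920 in Sox9cKO replicates 1 to 3. Both groups spread widely and overlapped, and in both groups replicate 1 was lowest and replicate 3 highest. The log2 fold change was 1.52 with an SE of 0.59 (limma adjusted p 0.243 without the block and 0.00635 with it). Within the 3 pairs the log2 differences were 1.95, 1.54 and 1.05, and without Control 1 the log2 fold change was 0.95. The gene overlaps Ccdc24 in RefSeq, and strand use in counting is not given in the sources used here, so some of its reads may belong to that gene.

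Slc1a4 encodes ASCT1, an exchanger of alanine, serine and cysteine. Its values were 66.4, 106 and 264 in Control and 181, 242 and 371 in Sox9cKO, again lowest in replicate 1 and highest in replicate 3 of both groups. The groups overlapped, and the log2 fold change was 1.04 with an SE of 0.50 (limma adjusted p 0.346 without the block and 0.0337 with it). Without Control 1 it was 0.60, and without Control 3 it was 1.58. The related exchanger Slc1a5 (ASCT2), a main route of glutamine uptake in many cells, was at 281, 286 and 274 in Control and at 355, 249 and 272 in Sox9cKO, with a log2 fold change of 0.04 (95% interval -0.35 to 0.44). Slc1a1 encodes the glutamate and aspartate transporter EAAC1. It was at 182, 114 and 176 in Control and at 124, 40.6 and 60.0 in Sox9cKO, lower in Sox9cKO within each pair. The single overlap was between Sox9cKO 1 and Control 2. The log2 difference was -1.18 with an SE of 0.41 (limma adjusted p 0.197 without the block and 0.0360 with it). The other tested glutamate carrier, Slc1a2, had values of 54.6 to 129 in Control and 68.0 to 105 in Sox9cKO.

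**Figure D2:**
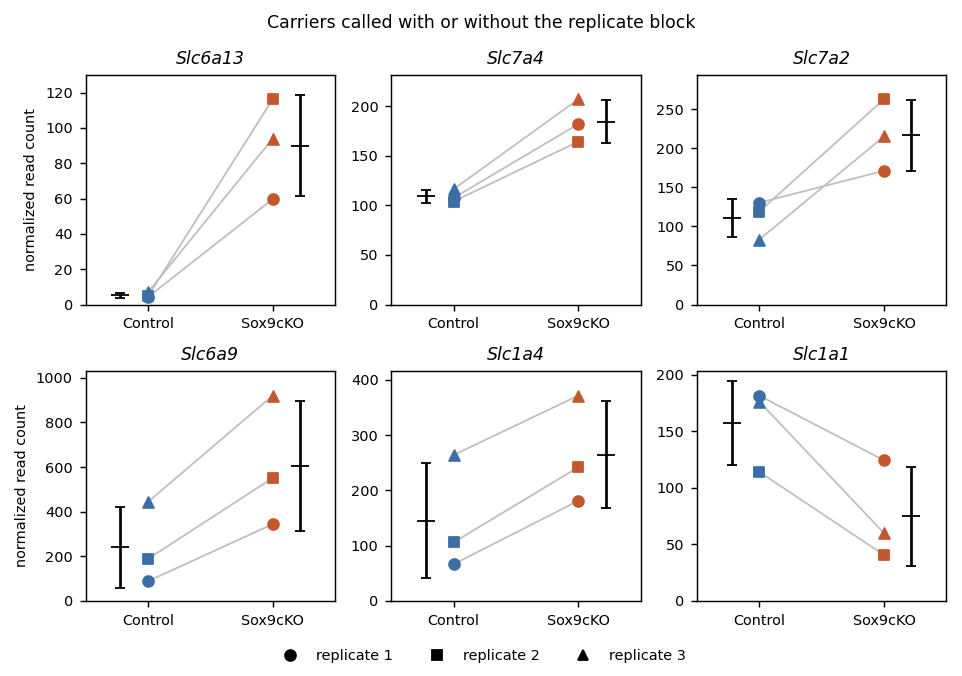
Normalized read counts of the 6 carriers called with or without the replicate block, with a linear axis from 0, 3 Control libraries on the left and 3 Sox9cKO libraries on the right of each panel. Lines join libraries of the same replicate number, and black marks give the mean ± SD. Slc6a13, Slc7a4 and Slc7a2 separate the groups, while the other 3 carriers overlap between groups and differ in the same direction in each pair.

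The cationic amino acid transporters of SLC7 are a group whose best-known members carry arginine, lysine and ornithine. All 4 tested members of the group had positive log2 fold changes (median 0.85), and limma called none without the block. DESeq2 without a block called Slc7a4 (adjusted p = 0.0241) and Slc7a2 (adjusted p = 0.0215), and edgeR with the block called neither (adjusted p = 0.0518 and 0.0655). Slc7a4, the least characterised of the group, was at 108, 104 and 116 in Control and at 182, 164 and 207 in Sox9cKO. Its libraries were tight within each group and did not overlap. The log2 fold change was 0.75 with an SE of 0.17 (limma adjusted p 0.0684 without the block and 0.0371 with it). Slc7a2 (CAT2) was at 130, 119 and 83.0 in Control and at 171, 263 and 215 in Sox9cKO, also without overlap. The log2 difference was 0.96 with an SE of 0.24 (limma adjusted p 0.0961 without the block and 0.0476 with it). Slc7a1 (CAT1) was the most abundant of these carriers, at 2918, 4086 and 6816 in Control and 5493, 5470 and 7054 in Sox9cKO. Control 3 lay above the lower 2 Sox9cKO libraries, and the log2 fold change of 0.46 had an interval of -0.23 to 1.15. It was 0.18 without Control 1 and 0.79 without Control 3. Slc7a3, on the X chromosome and overlapping Snx12, was at 6.72, 9.28 and 38.02 in Control and 24.9, 25.5 and 63.4 in Sox9cKO.

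The SLC3 heavy subunits and their SLC7 light chains form the exchangers of large neutral amino acids, of cystine and of cationic amino acids. Both heavy subunits had positive log2 fold changes, and so did 5 of the 7 tested light chains (median 0.61). None of these 9 was called with or without the block. Slc3a2, which encodes 4F2hc (CD98), was at 1390, 2238 and 2853 in Control and 2993, 3097 and 2585 in Sox9cKO. The Sox9cKO libraries lay close together and within reach of Control 3 (log2 fold change 0.48, interval -0.11 to 1.07). Slc7a5 (LAT1), its partner for large neutral amino acids, showed the same layout, at 551, 964 and 1720 in Control and 1332, 1482 and 1661 in Sox9cKO. Its log2 fold change was 0.61 with an interval of -0.26 to 1.49. Without Control 1 the log2 fold changes of Slc7a5 and Slc3a2 were 0.21 and 0.19, and without Control 3 they were 1.03 and 0.71. Slc7a11 (xCT), which imports cystine in exchange for glutamate, was low, at 14.3, 26.9 and 40.3 in Control and 151, 49.1 and 49.8 in Sox9cKO. All Sox9cKO libraries lay above Control, but Sox9cKO 1 stood far above the other two, and without it the log2 fold change was 0.96. On the log2 scale the difference was 1.49 with an SE of 0.55 (limma, adjusted p = 0.213). Slc7a7 and Slc7a6, the y+LAT light chains, had log2 fold changes of 0.72 (0.03 to 1.40) and 0.24 (-0.19 to 0.67). Slc3a1 encodes rBAT, the heavy subunit of the cystine and dibasic amino acid exchanger, and was at 120, 101 and 152 in Control and 206, 146 and 228 in Sox9cKO. A log2 difference of 0.63 resulted (0.07 to 1.18, limma, adjusted p = 0.229), and it overlaps Prepl in RefSeq. Its light chain Slc7a9 was at 22.7, 13.9 and 20.7 in Control and 0.995, 4.73 and 21.5 in Sox9cKO, so that 1 Sox9cKO library equalled the Control level. Slc7a8 (LAT2) was at 16.1 to 69.8 in Control and 11.3 to 36.8 in Sox9cKO.

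SLC38 held the most abundant carrier of all 9 families. Slc38a2 encodes SNAT2, a sodium-coupled carrier of alanine, glutamine and other small neutral amino acids that cells produce more of when starved of amino acids. It was at 9603, 12030 and 13414 in Control and at 10371, 11769 and 12825 in Sox9cKO, and the groups covered the same range. The log2 fold change was 0.00 with a 95% interval of -0.36 to 0.37. Slc38a4 (SNAT4), a carrier strongly expressed in liver, was lower in every Sox9cKO library, at 1834, 1453 and 1475 in Control and 837, 1158 and 1195 in Sox9cKO. Its log2 fold change was -0.59 with an SE of 0.17 (limma, adjusted p = 0.139), and DESeq2 called it (adjusted p = 0.0403). Slc38a10 lay above Control in every Sox9cKO library, at 1526, 1505 and 1338 against 2130, 2008 and 1587, a log2 difference of 0.38 (limma, adjusted p = 0.220). Slc38a1 (SNAT1) was at 62.2, 86.3 and 146 in Control and at 442, 100 and 156 in Sox9cKO, with a log2 fold change of 1.04. Sox9cKO 1 stood far above the other libraries, and the log2 differences within pairs 1 to 3 were 2.81, 0.21 and 0.094. Slc38a9, the lysosomal arginine sensor that acts on mTORC1, had an interval of -0.38 to 0.43. Slc38a3 (SNAT3), a glutamine carrier, ranged from 86.4 to 265 in Control and from 47.5 to 99.2 in Sox9cKO.

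The sodium- and chloride-coupled SLC6 family holds carriers of osmolytes, creatine and neurotransmitters beside Slc6a13. Slc6a6 encodes the taurine transporter TauT and was at 4027, 4105 and 3640 in Control and 5439, 4741 and 5846 in Sox9cKO. The groups did not overlap, and the difference was small relative to the level: the log2 fold change was 0.44 with an SE of 0.12 (limma, adjusted p = 0.114). Slc6a8, the creatine transporter, sits on the X chromosome and was at 839, 683 and 750 in Control and 1362, 604 and 880 in Sox9cKO, with the highest and the lowest value both in Sox9cKO. The log2 difference was 0.25 (-0.40 to 0.90). Slc6a20a and Slc6a20b, near-identical carriers of proline and related imino acids, share sequence, so their counts are uncertain. Slc6a20a ranged from 8.41 to 28.8 in Control and from 26.04 to 59.7 in Sox9cKO, and Slc6a20b from 9.22 to 21.0 and from 7.92 to 10.4. Slc6a4, the serotonin transporter, was near the minimum mean in both groups, at 8.41 to 15.0 and 5.97 to 18.1.

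Of the facilitative SLC43 carriers, Slc43a2 (LAT4), which passes branched-chain amino acids and phenylalanine, lay above Control in every Sox9cKO library, at 4179, 3565 and 4110 against 4392, 5061 and 5454. The distance between the nearest libraries was small, and the log2 fold change was 0.33 with an SE of 0.13 (limma, adjusted p = 0.235). Slc43a3, a carrier of purine nucleobases, spread widely within groups and is described with the endothelial markers. The proton-coupled carriers Slc36a4 and Slc36a1, of which Slc36a1 is known from the lysosome, had log2 fold changes of 0.71 (-0.14 to 1.55) and 0.23 (-0.31 to 0.78), or 0.36 and 0.051 without Control 3.

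Among the sugar carriers no member was called with limma with or without the block. Slc2a1 (GLUT1), the basal glucose transporter of many epithelia, was at 1951, 1534 and 2492 in Control and 2229, 2281 and 1801 in Sox9cKO. The groups overlapped fully, and the log2 fold change of 0.10 had an interval of -0.36 to 0.55. Slc2a2 (GLUT2), the low-affinity glucose transporter best known from hepatocytes, was at 2386, 1709 and 2133 in Control and 1972, 822 and 2114 in Sox9cKO. Only Sox9cKO 2 stood below the Control range (log2 fold change -0.45, interval -1.28 to 0.38), and without that library the log2 fold change was -0.010. Slc5a1 (SGLT1) was at 2918, 2047 and 2660 in Control and 1931, 2619 and 2712 in Sox9cKO, and 2 of its 3 Sox9cKO libraries were inside the Control range. Its interval was -0.51 to 0.37, so a change of 1 log2 unit in either direction lies outside it. Slc2a9, a urate transporter, was lower in every Sox9cKO library, at 113, 136 and 118 against 60.7, 84.1 and 91.7, a log2 difference of -0.64 (limma, adjusted p = 0.191). Slc2a12 (GLUT12), which overlaps Tbpl1, ranged from 4.61 to 24.4 in Control and from 18.9 to 51.7 in Sox9cKO.

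All 6 tested SLC5 members had negative log2 fold changes (median -0.49), under each scaling and count model tried, and none was called. Slc5a3 (SMIT1), the sodium-coupled inositol transporter, was the largest of them in counts, at 4670, 3926 and 3244 in Control and 2634, 3313 and 3266 in Sox9cKO. The single overlap was between Control 3 and the upper 2 Sox9cKO libraries (log2 fold change -0.35, interval -0.74 to 0.04). Its gene overlaps Mrps6. Slc5a2 (SGLT2), the kidney glucose carrier, was low, at 25.2, 23.2 and 17.3 in Control and 10.9, 10.4 and 7.92 in Sox9cKO. Slc5a10, a carrier of mannose and fructose that overlaps Fam83g, was at 26.1, 25.99 and 26.5 in Control and 5.97, 15.1 and 12.5 in Sox9cKO. Both pairs of groups were without overlap, with log2 fold changes of -1.09 (limma, adjusted p = 0.157) and -1.24 (limma, adjusted p = 0.164). The iodide carrier Slc5a5 also lay below Control in every Sox9cKO library, at 49.6, 53.8 and 44.9 against 18.9, 38.7 and 43.02, but Sox9cKO 3 came within a few reads of Control (log2 fold change -0.62, limma, adjusted p = 0.413). Slc5a6, which carries biotin and pantothenate, had a log2 fold change of -0.14.

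Levels between genes were compared only per kb of exon length, which was known for all 74 rows. Over all 6 libraries Slc38a2 stood at 1320 normalized reads per kb, Slc3a2 at 716, Slc5a1 at 605, Slc2a1 at 584 and Slc6a6 at 548. Slc7a1 followed at 460, Slc43a2 at 444, Slc7a5 at 347, and Slc2a2 and Slc5a3 each at 322. The ranges of neighbours in this order overlapped between libraries except that Slc38a2 lay above all others in each library. As a share of the summed level per kb of all members, SLC38 took 28.4 ± 1.47% (SD, n = 3) in Control and 24.9 ± 0.80% in Sox9cKO. SLC6 took 9.64 ± 0.80% and 12.6 ± 1.55%, and SLC7 13.5 ± 3.25% and 16.01 ± 1.05%. The SLC2 share was 14.5 ± 2.10% and 12.5 ± 1.51%, and the SLC5 share 14.9 ± 3.04% and 11.6 ± 1.47%. The SLC38, SLC6 and SLC5 shares did not overlap between groups, and the shares were not tested.

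**Figure D3:**
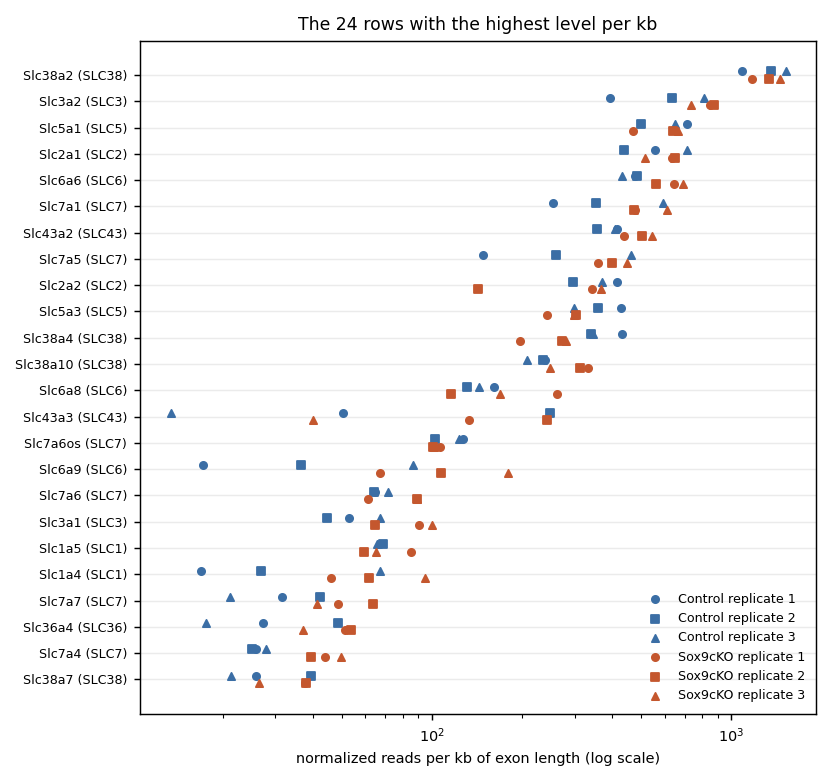
Normalized reads per kb of exon length, on a log axis, for the 24 rows with the highest level, with blue marks for the 3 Control and orange marks for the 3 Sox9cKO libraries. Slc38a2 is at the top at 1320 over all libraries, and Slc43a3, Slc6a9 and Slc1a4 have the widest spread between libraries of a group.

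Of the 22 members under the minimum mean, 7 (31.8%) lay below Control in every Sox9cKO library, and 2 (9.09%) above it. Among all 8149 rows under that mean the shares were 19.7% below and 3.07% above, and 152 rows of the table had no read in any Sox9cKO library against 1 row with none in any Control library. Low rows in general were thus more often absent from Sox9cKO. Among those below Control were Slc5a8, Slc5a11, Slc6a5 and Slc6a7, and the 2 above it were Slc5a9 and Slc2a10. Slc5a8, a carrier of lactate and other monocarboxylates, had 38 reads in Control and 3 in Sox9cKO, a depth-corrected ratio of 0.0787 with an exact 95% interval of 0.0155 to 0.248. Slc5a11 (SMIT2), a sodium-coupled inositol carrier, had 18 reads in Control and none in Sox9cKO. With a floor of 3 reads over the group Slc5a11 was 6.02-fold lower in Sox9cKO. The exact 95% interval of its depth-corrected ratio was 0 to 0.227, and limma without the filter on low values called it. The glycine transporter Slc6a5 had 12 reads and the proline transporter Slc6a7 had 11 in Control, and neither had a read in Sox9cKO. With the same floor they were 4.01-fold and 3.68-fold lower, and the exact 95% intervals of their ratios were 0 to 0.359 and 0 to 0.397. Slc5a9, a carrier of mannose and glucose, had 12 reads in Control and 30 in Sox9cKO (ratio 2.49, 1.24 to 5.35). The insulin-responsive glucose transporter Slc2a4 had 33 and 13 reads (ratio 0.393, 0.190 to 0.766), and the fructose transporter Slc2a5 had 30 and 29. The intervals and the floor cover counting error only. A further 13 carriers of these families, among them Slc38a5, Slc36a2 and Slc5a12, were not analysed here.

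Several carriers had the same order of libraries as the endothelial transcripts. Slc43a3 was at 226, 1110 and 59.9 in Control and 594, 1081 and 179 in Sox9cKO, so replicate 2 was highest and replicate 3 lowest in both groups, as for the endothelial sum. That order held in both groups for 8 of the 52 tested members (15.4%), against 8.07% of the tested genes outside the endothelial list. Besides Slc43a3 these were Slc38a7, Slc7a7, Slc38a3, Slc36a4, Slc36a1, Slc38a6 and Slc2a13. A shared order does not mean a spread of similar size: Slc36a1 was at 100, 110 and 71.4 in Control. For Slc43a3 the spread within groups exceeded the difference between them, with a log2 fold change of 0.97 and an interval of -1.54 to 3.48. The part of endothelial RNA in these carriers was not tested.

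A second set of carriers had the order of libraries of the amino acid response genes in Control. In this response, low amino acid supply or other stress raises the translation of the transcription factor ATF4, which activates genes of amino acid synthesis and uptake. The summed value of 20 response genes was 14387, 17290 and 26096 in Control and 24826, 23324 and 26164 in Sox9cKO, so only Control 3 reached the Sox9cKO range. The median log2 fold change of the 20 was 0.93, with 16 positive, against 0.04 for all tested genes, and limma called none without the block. With the block limma called 4, Ddit4, Nupr1, Pck2 and Vldlr, beside 8.05% of all tested genes. DESeq2 without a block called Ddit4, Nupr1 and Pck2, beside 1214 of 17138 genes over the whole table. Asns, which encodes asparagine synthetase, was at 246, 450 and 1043 in Control and 889, 992 and 1167 in Sox9cKO. Atf4 itself was at 6514 to 8319 in Control and 5917 to 8216 in Sox9cKO. Among the tested members, 14 (26.9%) had the Control order of the sum, from replicate 1 lowest to replicate 3 highest, against 15.1% of the tested genes outside the list. In Sox9cKO 7 members (13.5%) had the order of the sum in that group, against 12.4% of genes. The 14 in Control were Slc7a11, Slc6a9, Slc7a1, Slc7a5, Slc1a4, Slc38a1, Slc38a2, Slc3a2, Slc2a6, Slc1a2, Slc7a3, Slc6a13, Slc6a20a and Slc6a4. For some of them the order rests on few reads and on the size factors. In Control replicates 1 to 3 Slc6a13 had 5, 5 and 6 reads, Slc2a6 13, 13 and 11, and Slc6a4 10, 16 and 13. Counting error alone could set the order of these genes. In both groups together the order of the sum was shared by 2 members (3.85%), Slc7a1 and Slc1a2, against 2.11% of genes. Since ATF4 is known to act on several of these carriers, the sum and the carriers are not independent measures, and the part of this response in the group differences was not tested.

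**Figure D4:**
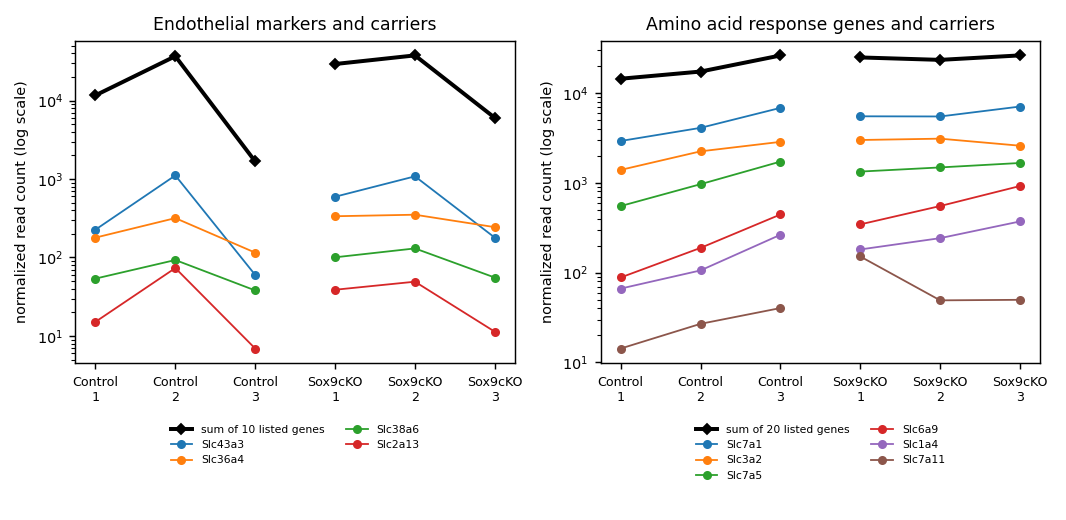
Normalized read counts by library on a log axis, with the sum of 10 endothelial markers (left) or 20 amino acid response genes (right) in black and carriers in colour, where lines only guide the eye within a group. On the left the carriers peak in replicate 2 of both groups with the sum, and on the right Control 1 is lowest for the sum and all 6 carriers shown.

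The promoter windows of Slc7a11 and Slc1a4 are shown because both hold the response motif TGATGNAA, known as CARE and bound by ATF4 with its partners. The windows run from 250 bases before to 20 bases after the start in RefSeq GRCm38.p6, at chr3:50443594-50443863 and chr11:20332694-20332963, both on the minus strand. Capitals mark the motif or its reverse complement.
Slc7a11: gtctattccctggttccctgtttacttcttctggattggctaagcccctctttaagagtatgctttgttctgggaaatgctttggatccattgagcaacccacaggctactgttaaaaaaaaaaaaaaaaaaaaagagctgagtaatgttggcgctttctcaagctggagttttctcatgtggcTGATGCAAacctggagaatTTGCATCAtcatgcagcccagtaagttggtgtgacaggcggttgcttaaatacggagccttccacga
Slc1a4: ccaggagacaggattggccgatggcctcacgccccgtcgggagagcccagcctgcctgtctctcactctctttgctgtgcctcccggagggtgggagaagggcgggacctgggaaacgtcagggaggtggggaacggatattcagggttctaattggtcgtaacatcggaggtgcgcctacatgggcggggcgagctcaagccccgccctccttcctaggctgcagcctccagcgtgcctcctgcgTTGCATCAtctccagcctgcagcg
In Slc7a11 the motif begins 66 bases before the start on the strand of the gene and 47 bases before it on the other strand. In Slc1a4 it begins 4 bases before the start, on the other strand, and crosses the start. The motif occurred in 3.97% of all windows and in 4 of 77 member windows (5.19%), which belong to Slc1a4, Slc7a11 and Slc7a7. No window of Slc6a9, Slc3a2, Slc7a1 or Slc38a2, which also had the Control order of the response sum, holds it.

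Genes that sense or process the carried solutes were counted by pathway. Of 23 genes of amino acid sensing by mTORC1, 1 rose: Rragd, a Rag GTPase that ties amino acids to mTORC1, went from 489, 360 and 454 in Control to 889, 1837 and 1201 in Sox9cKO (log2 fold change 1.54, limma, adjusted p = 0.0297). The median of this list was 0.02. Of 9 tested genes of taurine, creatine and betaine metabolism, the substrates of Slc6a13, Slc6a6 and Slc6a8, 1 rose and 1 fell. Over all tested genes 2.03% rose and 0.939% fell. Chdh, which makes betaine aldehyde from choline, fell from 2527, 1440 and 1523 to 673, 436 and 492 (log2 fold change -1.75, limma, adjusted p = 0.0151). Bhmt, which uses betaine to methylate homocysteine, rose from 34.5, 42.7 and 13.8 to 130, 167 and 162 (log2 fold change 2.43, limma, adjusted p = 0.0268). Bhmt is strongly expressed in hepatocytes, and the hepatocyte markers that rose are given with Slc6a13. Csad, which leads to taurine, was called by limma only with the block (log2 fold change 0.65, limma adjusted p 0.0620 without the block and 0.0413 with it) and by DESeq2 without a block (adjusted p = 0.0176).

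In the gamma-glutamyl cycle, which breaks down glutathione outside the cell and yields amino acids for uptake, 2 of 10 tested genes fell and none rose, beside 0.939% of all tested genes that fell. Ggt1, which removes the glutamyl group, was at 94.99, 51.0 and 84.1 in Control and 25.9, 14.2 and 21.5 in Sox9cKO (log2 fold change -1.84, limma, adjusted p = 0.0398). Anpep, an aminopeptidase that cleaves the resulting peptides, was at 1317, 949 and 919 in Control and 555, 419 and 488 in Sox9cKO (log2 fold change -1.11, limma, adjusted p = 0.0243). Neither pair of groups overlapped. With the block Gclc, of glutathione synthesis, was called as well (log2 fold change 0.51, limma, adjusted p = 0.0468), as it was by DESeq2 without a block. Of 10 enzymes of glutamine, glutamate and aspartate and 9 of branched-chain and cationic amino acids, limma called none without the block, and Glud1 (log2 fold change 0.56) and Oat (-1.17) were called with it and by DESeq2 without it.

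On the sugar side, 1 of 25 tested glycolysis genes rose. Pfkfb3, which makes the activator of phosphofructokinase, went from 1990, 2354 and 2120 in Control to 4324, 3789 and 5278 in Sox9cKO (log2 fold change 1.04, limma, adjusted p = 0.0137). The median of the list was 0.14, and Eno1 (-0.57) was also called with the block (limma, adjusted p = 0.0231). Of 8 regulators of glucose transporter traffic 1 fell: Tbc1d4, a Rab GTPase-activating protein that holds glucose transporters inside the cell, went from 1408, 1031 and 1197 to 511, 507 and 545 (log2 fold change -1.21, limma, adjusted p = 0.00699), and with the block Tbc1d1 (0.68) was called as well (limma, adjusted p = 0.0363). Of 9 tested genes of polyol, fructose and inositol metabolism 1 rose: Akr1b7, an aldo-keto reductase, was at 84.1, 69.6 and 92.2 in Control and 669, 186 and 365 in Sox9cKO (log2 fold change 2.12, limma, adjusted p = 0.0499), and with the block Akr1b8 (1.02) was called as well (limma, adjusted p = 0.0275), as it was by DESeq2 without a block. These single calls in lists of 8 to 25 genes stand beside 2.97% of all tested genes, and the glucose carriers Slc2a1, Slc2a2 and Slc5a1 were not among the calls.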

How the data were processed

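RNA from 6 mouse samples (3 Control, 3 Sox9cKO) was extracted with a micro-scale kit and made into stranded, ribosomal RNA-depleted libraries with molecular identifiers, per the labels' protocols. The submitters' processing notes name GRCm39 and DESeq2 1.36.0, and the aligner, the counting and the use of strand and identifiers are not given in the sources used here. The deposited values are a signal for each gene in each library, which proves on inspection to be read counts divided by 1 size factor per library (0.868 to 1.19), and dividing that out gave whole reads for 100% of values (tolerance 0.001 reads). Values were compared as log2(value + 1), which understates the change of low genes, for the 17153 genes with a mean of at least 10, with limma 3.58.1 in R 4.3.3 (intensity trend, Benjamini-Hochberg adjustment over all of them, threshold 0.05, two-sided). Intervals are 95%.

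The labels number the replicates within each group and state no pairing. For same-numbered samples the deviations from the group means correlated at 0.207, 0.472 and 0.542, so fits with the replicate block were read beside the others. edgeR 4.0.16 (quasi-likelihood) and DESeq2 1.42.0 were run on the recovered reads as alternatives, with 2 other pseudocounts, 2 other filters, TMM and quantile scaling, no intensity trend and 6 fits without 1 sample. The scripts were tested on simulated reads.

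Named carriers were those called, those called only under the block or edgeR, the 2 with the highest level per kb in each family, and 10 chosen by role. Others named, such as those whose groups do not overlap, were chosen after their values were seen. The members and all gene lists were chosen with earlier results of these data known. Exon lengths came from GENCODE M21, promoter windows and overlapping genes from RefSeq.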

Additional observations from a re-analysis of the deposited data

How the results depend on the processing

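The number of carriers called was 1 of 52 and remained 1 in each of the 6 fits that left out 1 sample, and with both pseudocounts, TMM and quantile scaling, no intensity trend and edgeR. It was 6 with the replicate block in limma, 4 with the replicate block in edgeR (Slc6a13, Slc6a9, Slc1a4, Slc1a1), 4 with DESeq2 (Slc6a13, Slc7a4, Slc7a2, Slc38a4), 2 without a filter on low values (Slc6a13, Slc5a11), and 0 with a minimum mean of 50, under which Slc6a13 was not tested. Over all genes 510 were called, against 1381 with the block in limma, 1160 with it in edgeR, 1214 with DESeq2, and 199 to 387 when 1 sample was left out. The log2 fold change of Slc6a13 lay between 3.17 and 4.15 in the 16 alternatives that tested it (adjusted p at most 0.0232), and that of Sox9 kept its direction and its call in all of them. The blocked fit changed no call of a tested carrier other than the 5 it added.

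Some carriers that were not called changed sign. Slc38a2 was at -0.055 with quantile scaling, -0.048 with edgeR, -0.040 with edgeR and the block and -0.042 with DESeq2, and between -0.13 and 0.11 when 1 sample was left out. Slc1a5 was at -0.084 with quantile scaling and -0.0013 with edgeR and the block, and between -0.11 and 0.15 when 1 sample was left out. Leaving out 1 sample moved Slc5a1 between -0.22 and 0.084, Slc2a1 between -0.076 and 0.27, Slc6a8 between -0.050 and 0.54 and Slc43a3 between -0.043 and 2.05. The cause was not tested. Positive members numbered 33 of 52, and 30 with quantile scaling. Genes near the minimum mean, and the 22 members under it, are limited by depth.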
